A study of Rattus norvegicus with 16 samples.

Results

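The liver genes described here encode the enzymes that activate, carry and oxidise fatty acids. They were listed by name as the enzymes of mitochondrial and peroxisomal beta-oxidation together with the acyl-CoA synthetases, thioesterases and related editing enzymes that set the supply of acyl-CoA. Of the 47 listed genes, 39 had a row of their own in the array table, which holds 18884 rows that were tested, and no filter on signal was applied. The 39 genes comprise 18 of 21 mitochondrial genes, 5 of 9 peroxisomal genes and all 5 genes classed under both compartments. They also include 7 of 8 activating genes and all 4 thioesterase or editing genes. Acad11 is classed under both compartments, but its compartment was not settled here. The other 8 listed genes, Acad10, Hadha, Echdc3, Acaa1a, Decr2, Acot4, Scp2 and Acsm1, were not analysed here. RNA came from the livers of 16 male Sprague Dawley rats, 1 Affymetrix Rat Exon 1.0 ST array per rat, with 4 rats in each of 4 groups. Fed rats were the controls, P2 rats were fasted to phase 2 of fasting, P3 rats were fasted to phase 3, and P3r2 rats were fasted to phase 3 and then given food again for 2 days. Neither the age of the rats nor the duration of each fast is stated in the sources used here. Values are log2 signals as deposited, so a difference of 1 is a doubling, and a gene was called changed at an adjusted p under 0.05 in limma, a linear model fitted across all rows with Benjamini-Hochberg adjustment. Differences between groups are given as log2 differences ± SE of that fit, with 4 arrays per group. Each call was recomputed under 27 alternatives, 16 of which leave out 1 array, and 71 of the 91 calls on these genes were made in every one. Calls lost in 3 or more of them are marked where the gene is described.

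Beta-oxidation shortens an activated fatty acid, an acyl-CoA, by repeated rounds of dehydrogenation, hydration, a further dehydrogenation and thiolytic cleavage. Long chains enter mitochondria through the carnitine shuttle, whose first step malonyl-CoA inhibits, while very long and branched chains are first shortened in peroxisomes. In the fasted liver this pathway feeds ketone body synthesis and glucose production, and the nuclear receptor PPAR alpha is known to induce many of its genes. Phase 2 of a long fast is known as the period when fat is the main fuel and protein is spared, and phase 3 as the later period when body protein is increasingly broken down.

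Array profiles correlated at 0.966 to 0.992 within groups and 0.912 to 0.985 between groups over the rows tested. Arrays fed 2, P2 4 and P3 3 had a narrower spread of signal than the others, with standard deviations over rows of 2.12, 2.14 and 2.18. The array fed 2 held the lowest fed value in 35 of the 39 genes, P3 3 the lowest P3 value in 25 and P2 4 the lowest P2 value in 17. Counts of called genes are therefore also given without these 3 arrays. Of 10 listed hepatocyte markers 8 had a row, and their mean log2 signal per array ranged from 12.36 to 12.68 in fed, 12.58 to 12.67 in P2, 12.05 to 12.45 in P3 and 12.47 to 12.52 in P3r2 livers. In P3 against fed livers Ttr and Asgr1 were called lower and Cps1 higher. The 9 of 10 Kupffer cell markers with a row averaged 7.39, 7.38, 7.38 and 7.26 in the groups in the same order, and the 3 of 10 endothelial markers 6.80, 6.89, 7.19 and 6.72. In P3 against fed livers 1 of 9 Kupffer cell, 1 of 3 endothelial and 1 of 8 stellate cell markers were called higher, and 3 of 8 stellate cell markers lower. In whole liver, fewer cells of a type and less RNA per cell cannot be told apart, and the part of other cell types in the results was not tested.

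Phase 2 livers had higher signals for 12 of the 39 genes. Among them were some auxiliary enzymes of unsaturated fatty acids (Ech1, Decr1 and Eci1) and the medium-chain acyl-CoA synthetases Acsm5 and Acsm3. These 12 are 30.8% of the genes. Of all rows tested, 6.13% were called higher in this comparison. Signals of 3 genes, Acsl3, Acsl5 and Echdc1, fell, which is 7.69% against 6.58% of all rows, and the Echdc1 call was lost in 17 of the 27 alternatives. Of the 39 genes, 38 were brighter than the median row, and calls were more frequent among such rows. In a fit of the 9442 brighter rows alone, 11.6% were called higher and 16.1% lower. That fit had its own adjustment, while the 30.8% and 7.69% of these genes come from the fit of all rows. The same holds for the shares of brighter rows in the other comparisons. The median log2 difference between P2 and fed livers over the 39 genes was 0.42, and over all rows 0.05. Without the 3 arrays of narrow spread, 13 genes were called higher and 3 lower, against 4.47% and 7.83% of all rows. Across the 8220 brighter rows of known gene length, the P2 difference correlated with gene length (Spearman rho -0.38, rows not being independent), and with that trend taken out 18 of the 39 genes were called higher and 4 lower. Under that fit 9.22% of the 13226 rows of known length were called higher and 11% lower.

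Phase 3 livers had lower signals for 16 of the 39 genes than fed livers, with Crot, Hadh and Acsl1 the furthest down, and higher signals for 6, with Cpt1a the furthest up. The 16 lower genes are 41% of the 39, against 8.07% of all rows, and the 6 higher genes are 15.4%, against 11.3% of all rows. In a fit of the 9442 brighter rows alone, 16.1% were called lower and 23% higher. The 15.4% of these genes called higher comes from the fit of all rows, which has a separate adjustment, so it cannot be set directly against that 23%. The median log2 difference was -0.33, and over all rows 0.03. Without the 3 arrays of narrow spread, 21 genes were called lower and 7 higher, against 9.25% and 10.8% of all rows. The comparisons of P2 and of P3 with fed livers share the fed arrays, so P3 was also set directly against P2. There 22 genes (56.4%) were called lower, against 8.53% of all rows, and 2 genes, Cpt1a and Acsl4 (5.13%), higher, against 13.5% of all rows, with a median log2 difference of -0.73 and -0.03 over all rows. The Acsl4 call was lost in 3 of the 27 alternatives. In the fit of brighter rows alone, 15.5% were called lower and 28.1% higher in P3 than in P2. Without the 3 arrays, 23 genes were called lower and 2 higher in P3 than in P2, against 9.12% and 14.8% of all rows.

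Refed livers had higher signals than P3 livers for 22 of the 39 genes (56.4%), against 10.5% of all rows, and lower signals for 6 (15.4%), against 7.94% of all rows. In a fit of the 9442 brighter rows alone, 20.9% were called higher and 16% lower. The median log2 difference was 0.74, and over all rows -0.03. Without the 3 arrays, 21 genes were called higher and 6 lower, against 11.3% and 9.75% of all rows. Against fed livers, 2 genes, Acsl5 and Echdc1, were called higher in P3r2 (5.13%, against 2.21% of all rows), and 0 were called lower in limma, against 0.514% of all rows. The Echdc1 call was lost in 3 of the 27 alternatives. In the fit of brighter rows alone, 6.27% were called higher and 1.1% lower in P3r2 than in fed livers. Without the 3 arrays, 2 genes were called higher and 2 lower, against 2.27% and 0.948% of all rows. At an unadjusted p under 0.05, 11 genes were higher and 0 lower in P3r2 than in fed livers, and of all rows 11.3% were higher and 3.24% lower. The median log2 difference between refed and fed livers was 0.23, and over all rows 0.02.

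**Figure D1:**
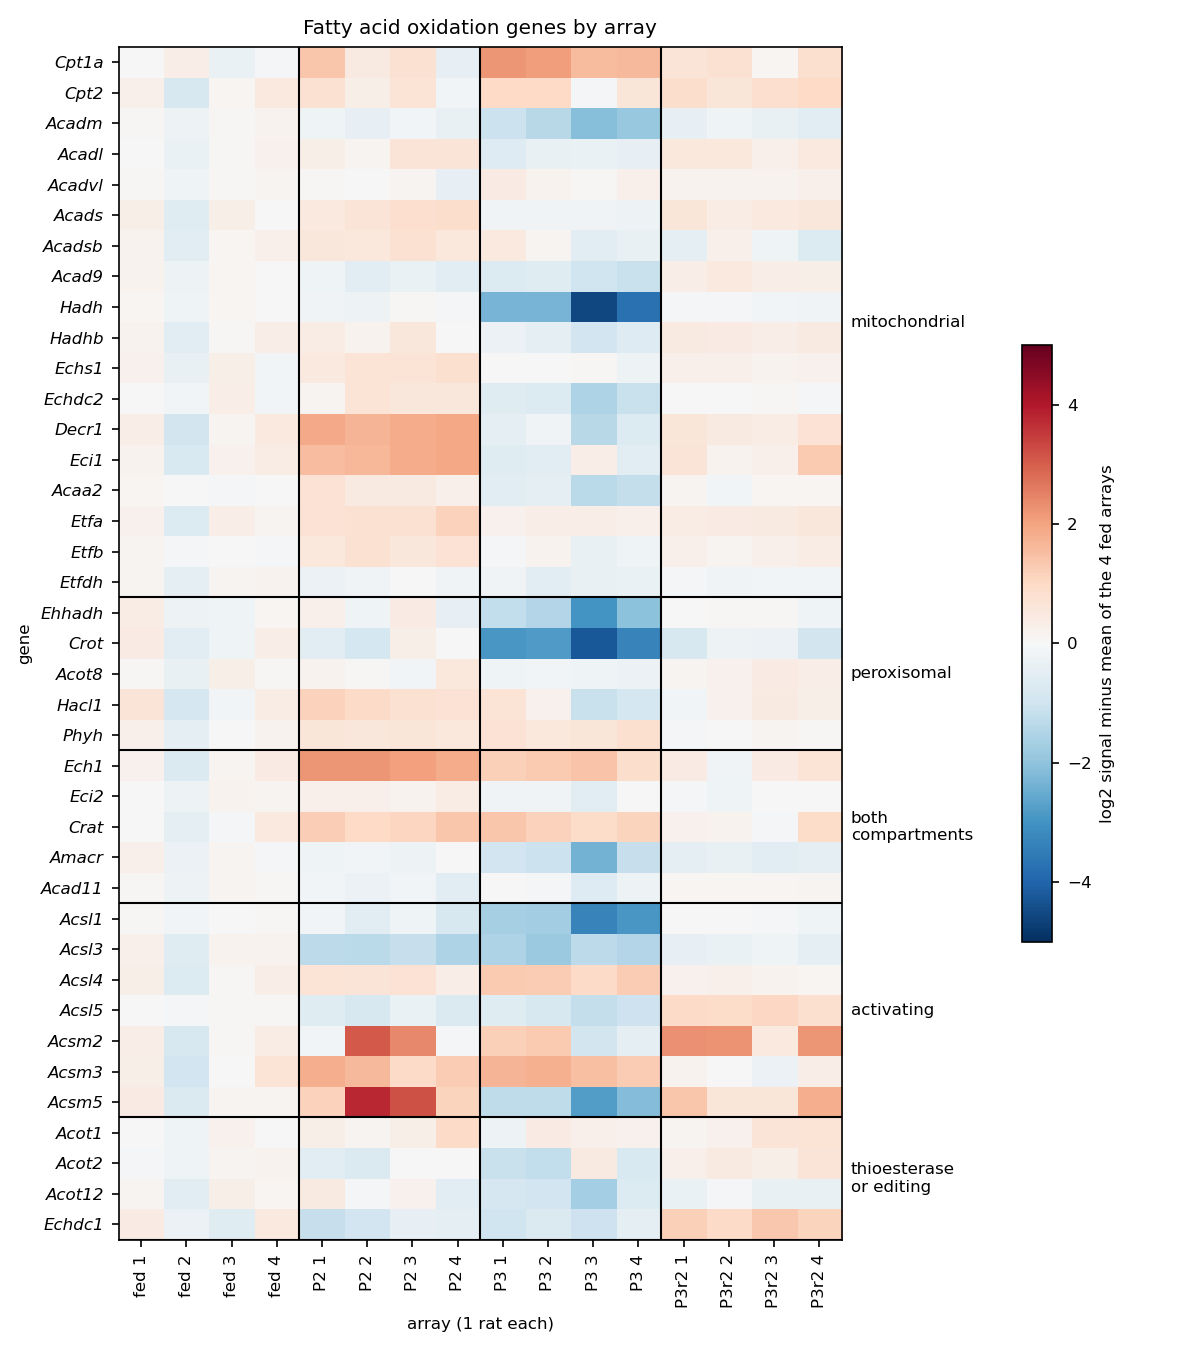
Log2 signal of the 39 genes (rows of the plot) in each of the 16 arrays (columns), minus the mean of the 4 fed arrays, from blue (lower) to red (higher). The darkest blue cells are Hadh, Crot and Acsl1 in P3, the darkest red cells are Acsm5 in P2 2 and P2 3, and Cpt1a is red in all 4 P3 arrays.

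The classes are compared by their mean signal per array. The mean of the 18 mitochondrial genes per array lay 0.48 ± 0.088 (SD, n = 4) above the fed mean in P2 livers on the log2 scale, -0.41 ± 0.25 from it in P3 livers and 0.25 ± 0.053 above it in P3r2 livers. The same mean over the 5 peroxisomal genes was 0.27 ± 0.12 in P2, -1.02 ± 0.45 in P3 and -0.02 ± 0.14 in P3r2 livers. Crot (-3.33 ± 0.32) and Ehhadh (-1.93 ± 0.30) carried this P3 mean, while Acot8, Hacl1 and Phyh differed from fed by -0.21 ± 0.15, -0.27 ± 0.36 and 0.66 ± 0.13. The median P3 difference was -0.27 over the peroxisomal and -0.35 over the mitochondrial genes, so the larger peroxisomal fall appears in the mean and not in the median. For the 5 genes of both compartments the mean was 0.62 ± 0.041 in P2, 0.10 ± 0.24 in P3 and 0.04 ± 0.15 in P3r2 livers. Their P3 arrays overlapped the fed arrays, while all 4 P2 arrays lay above them. Ech1 (2.08 ± 0.23) and Crat (1.16 ± 0.21) carried this P2 mean. Amacr, Acad11 and Eci2 differed from fed in P2 by -0.15 ± 0.24, -0.28 ± 0.14 and 0.28 ± 0.13. The median P2 difference was 0.28 over these 5 genes and 0.48 over the mitochondrial genes. The activating genes averaged 0.46 ± 0.47, -0.53 ± 0.44 and 0.52 ± 0.19 in P2, P3 and P3r2 livers. In the same order, the thioesterase or editing genes averaged -0.16 ± 0.20, -0.59 ± 0.16 and 0.42 ± 0.088. The fed arrays themselves had SDs of 0.22 to 0.39 around these class means, with fed 2 lowest in each class. The median P3 differences of the genes of both compartments, the activating and the thioesterase or editing genes were -0.22, -0.91 and -0.74. Differences between classes were not tested, because a class mean rests on few genes whose members moved in both directions.

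**Figure D2:**
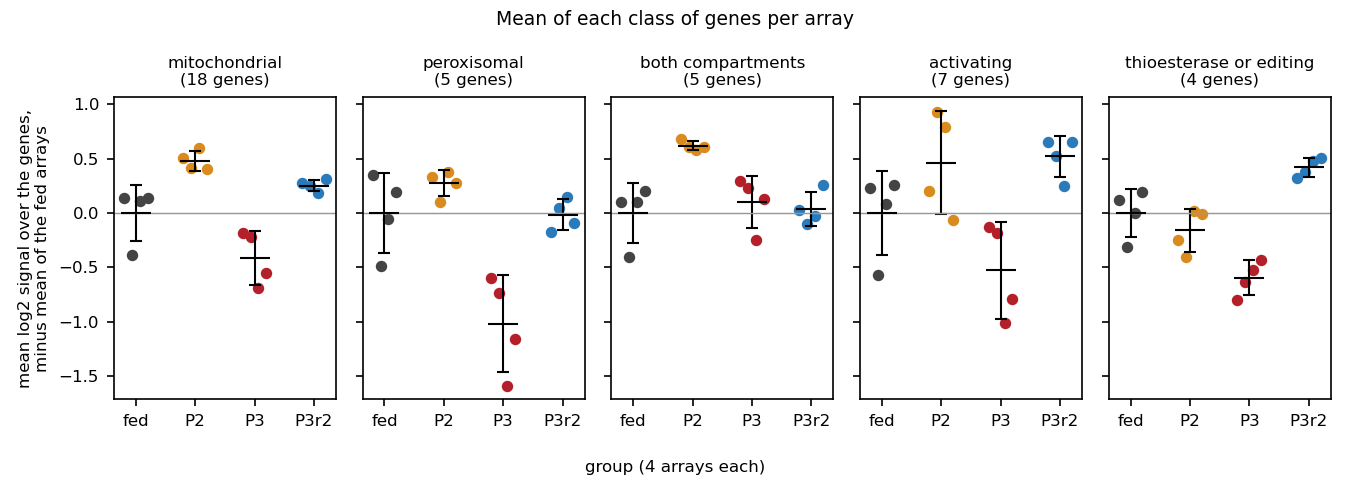
Mean log2 signal per array over the genes of each class, minus the mean of the 4 fed arrays, with 1 point per array and bars for the mean ± SD (n = 4). The P2 points of the mitochondrial and both-compartment genes lie above all fed points, and the P3 points of the peroxisomal genes, a mean carried by Crot and Ehhadh, lie below all fed points, from -1.59 to -0.59. By the median over the same 5 genes, P3 1 (-0.23) and P3 2 (-0.12) lie within the fed range of -0.45 to 0.37. The P3 points of the thioesterase or editing genes, from -0.80 to -0.43, also lie below all fed points of that class.

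Because PPAR alpha is known to bind, with its partner RXR, a direct repeat of a hexamer spaced by 1 base, the promoters of the genes were searched for this element. The window was 250 bases before to 50 bases after the start of each gene in RefSeq (GRCr8), with an entry for 35 of the 39 genes (not Acadl, Decr1, Acaa2 and Ech1), and both strands were read. The element AGGTCANAGGTCA occurred exactly in 0 of the 35 promoters and in 0.0538% of the 33469 promoters of the table. With at most 1 mismatch it was found in 3 of 35 (8.57%, against 0.439% of all promoters), and with at most 2 mismatches outside the spacer in 7 of 35 (20%, against 3.77%). The hexamer AGGTCA alone, which each exact element contains, was present in 12 of 35 (34.3%, against 16.2%). These matches describe the letters of this window and are neither binding sites nor causes, and nothing follows for genes without one. The 7 matches are shown because they can be set beside the changes of the same genes, each read along the motif in its 5′ to 3′ direction, with letters that equal the motif's, outside its spacer base, in capitals.
Acadvl (chr10:55236710-55236722): AGGTCAgtGGTCA
Echs1 (chr1:204333649-204333661): AGaTCAgAGGTCt
Etfa (chr8:64788107-64788119): AGGgCAaAGGTaA
Acot8 (chr3:173962198-173962210): gGGTCAgAGGTCA
Crat (chr3:34087310-34087322): AGGaCAccGGTCA
Amacr (chr2:61673127-61673139): AGacCAaAGGTCA
Acot12 (chr2:24721854-24721866): AGGTgAgAGGTCA

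The whole 300-base windows of Acot12, Amacr and Acadvl are printed on the strand of the gene, 5′ to 3′, with the matched element in capitals. The signals of Acot12 and Amacr fell in phase 3, whereas Acadvl, which holds 1 of the 3 closest matches, was not called in any comparison. The windows lie at chr2:24721709-24722008 (plus strand, Acot12), chr2:61673085-61673384 (plus strand, Amacr) and chr10:55236656-55236955 (minus strand, Acadvl) in GRCr8.
Acot12 promoter: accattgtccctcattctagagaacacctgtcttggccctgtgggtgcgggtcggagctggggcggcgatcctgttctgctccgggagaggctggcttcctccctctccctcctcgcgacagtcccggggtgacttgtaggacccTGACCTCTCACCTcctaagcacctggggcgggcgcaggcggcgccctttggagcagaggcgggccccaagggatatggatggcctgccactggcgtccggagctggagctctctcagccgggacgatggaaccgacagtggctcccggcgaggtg
Amacr promoter: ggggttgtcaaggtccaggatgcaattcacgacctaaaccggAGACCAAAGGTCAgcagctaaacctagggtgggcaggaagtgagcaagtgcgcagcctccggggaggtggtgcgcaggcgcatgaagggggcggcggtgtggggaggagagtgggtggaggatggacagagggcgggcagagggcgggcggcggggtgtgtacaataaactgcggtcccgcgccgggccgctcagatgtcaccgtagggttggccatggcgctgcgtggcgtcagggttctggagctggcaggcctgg
Acadvl promoter: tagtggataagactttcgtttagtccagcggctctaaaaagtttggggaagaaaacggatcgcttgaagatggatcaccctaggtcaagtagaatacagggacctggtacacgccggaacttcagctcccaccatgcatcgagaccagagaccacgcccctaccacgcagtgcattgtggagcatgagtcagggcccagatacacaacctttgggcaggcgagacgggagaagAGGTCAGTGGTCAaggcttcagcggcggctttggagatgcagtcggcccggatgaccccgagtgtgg

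Among the mitochondrial genes, Cpt1a was called higher in P3 than in fed livers, and 7 of the other genes were called lower. Cpt1a encodes the liver carnitine palmitoyltransferase of the outer membrane, the rate-limiting entry step. Its log2 signal read 8.84, 9.14, 8.48 and 8.76 in the fed arrays 1 to 4 and 10.18, 9.24, 9.58 and 8.39 in the P2 arrays. In P3 livers Cpt1a read 11.02, 10.90, 10.38 and 10.44, and in P3r2 livers 9.43, 9.58, 8.91 and 9.62. All 4 P3 arrays lay above every other array, while the P2 arrays spread on both sides of the fed arrays. Cpt1a rose 3.68-fold in P3 over fed livers (log2 difference 1.88 ± 0.30 SE, adjusted p = 0.000233). It was 2.53-fold higher in P3 than in P2 (1.34 ± 0.30, adjusted p = 0.00363) and fell on refeeding (-1.30 ± 0.30, adjusted p = 0.00514). In P2 against fed livers the difference was 0.54 ± 0.30 and not called. Cpt2, the inner-membrane enzyme that hands the acyl group back to CoA, read 8.57, 7.52, 8.41 and 8.81 in the fed arrays 1 to 4 and 9.07, 8.60, 8.99 and 8.20 in the P2 arrays. In P3 livers Cpt2 read 9.33, 9.33, 8.26 and 8.94, and in P3r2 livers 9.20, 8.94, 9.15 and 9.33. All 4 P3r2 arrays lay above the highest fed array, yet no comparison of Cpt2 was called, the largest difference being 0.83 ± 0.28 between P3r2 and fed livers (adjusted p = 0.148).

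The acyl-CoA dehydrogenases, which catalyse the first step of each round for different chain lengths, did not move as a block. Acadm, the medium-chain enzyme, read 11.22, 10.91, 11.22 and 11.35 in the fed arrays 1 to 4 and 10.95, 10.76, 11.05 and 10.81 in the P2 arrays. In P3 livers Acadm read 10.11, 9.78, 9.06 and 9.27, and in P3r2 livers 10.75, 10.95, 10.81 and 10.63. Its P3 arrays were all below every array of the other 3 groups. Acadm fell 3.07-fold in P3 livers (-1.62 ± 0.19, adjusted p = 1.16e-05) and rose with refeeding (1.23 ± 0.19, adjusted p = 0.000173). Its P2 difference of -0.28 ± 0.19 was not called. Acad9, a long-chain enzyme also needed for assembly of respiratory complex I, fell in P3 livers (-0.85 ± 0.13, adjusted p = 0.000213) and rose on refeeding (1.20 ± 0.13, adjusted p = 8.88e-06). Acad9 was also lower in P3 than in P2 (-0.44 ± 0.13, adjusted p = 0.0254). That call was lost in 5 of 27 alternatives (adjusted p up to 0.0932, including without P2 1, P2 3, P3 3 or P3 4). Acadl, for long chains, was lower in P3 (-0.44 ± 0.14, adjusted p = 0.0347). The Acadl call was lost in 8 of 27 alternatives (adjusted p up to 0.108, including without fed 1, fed 3, fed 4, P3 1, P3 2 or P3 4). Acads, for short chains, rose in P2 (0.71 ± 0.16, adjusted p = 0.0109) and was at -0.20 ± 0.16 in P3 against fed livers, not called. The P2 difference of Acadl was also positive (0.44 ± 0.14, adjusted p = 0.0505) but not called. Both were lower in P3 than in P2, Acads by -0.91 ± 0.16 (adjusted p = 0.000689) and Acadl by -0.87 ± 0.14 (adjusted p = 0.000263). Acadvl, the membrane-bound very-long-chain enzyme, read 9.96, 9.70, 9.96 and 10.05 in the fed arrays 1 to 4 and 9.97, 9.89, 10.04 and 9.52 in the P2 arrays. In P3 livers Acadvl read 10.32, 10.08, 9.99 and 10.18, and in P3r2 livers 10.08, 10.09, 10.07 and 10.18. Its groups overlapped or nearly met, and its differences from fed livers of -0.06 ± 0.12 in P2, 0.23 ± 0.12 in P3 and 0.19 ± 0.12 in P3r2 were not called. Acadsb, which also acts in isoleucine breakdown, was not called in any comparison, with differences from fed livers between -0.26 ± 0.24 in P3r2 and 0.59 ± 0.24 in P2.

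At the later steps of a round, the hydroxyacyl-CoA dehydrogenase Hadh had the deepest fall of the mitochondrial genes. Hadh, which oxidises medium- and short-chain 3-hydroxyacyl-CoA, read 11.88, 11.56, 11.89 and 11.82 in the fed arrays 1 to 4 and 11.61, 11.53, 11.85 and 11.72 in the P2 arrays. In P3 livers Hadh read 9.48, 9.47, 7.23 and 8.05, and in P3r2 livers 11.75, 11.69, 11.67 and 11.60. The 12 arrays of fed, P2 and P3r2 livers lay within a narrow band, and the 4 P3 arrays lay well below it, with P3 3 and P3 4 lower than P3 1 and P3 2. Signal was 9.38-fold lower in P3 than in fed livers (-3.23 ± 0.36, adjusted p = 9.25e-06) and rose by 3.12 ± 0.36 on refeeding (adjusted p = 1.44e-05). P2 livers differed from fed by -0.11 ± 0.36, which was not called. Hadhb, the thiolase subunit of the trifunctional protein that handles long chains, was lower in P3 (-0.60 ± 0.18, adjusted p = 0.0273). The Hadhb call was lost in 6 of 27 alternatives (adjusted p up to 0.102, including without fed 1, fed 3, fed 4, P3 3 or P3 4). Hadhb rose on refeeding (1.02 ± 0.18, adjusted p = 0.000722). Acaa2, the mitochondrial 3-ketoacyl-CoA thiolase of the last step, fell in P3 (-0.88 ± 0.17, adjusted p = 0.00137) and rose on refeeding (0.93 ± 0.17, adjusted p = 0.00102). Echdc2, a mitochondrial protein with an enoyl-CoA hydratase domain, fell by -0.98 ± 0.18 (adjusted p = 0.000876). Echs1, the short-chain enoyl-CoA hydratase, rose in P2 (0.67 ± 0.13, adjusted p = 0.00526) and was -0.06 ± 0.13 from fed in P3, not called.

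Of the auxiliary enzymes that let unsaturated fatty acids through the spiral, Decr1, Eci1 and Ech1 were high in phase 2. Eci2, an isomerase like Eci1, was not called in P2 against fed livers (0.28 ± 0.13, adjusted p = 0.162), and Decr2 was not analysed. Decr1, the mitochondrial 2,4-dienoyl-CoA reductase, read 8.70, 7.44, 8.52 and 8.85 in the fed arrays 1 to 4 and 10.26, 10.08, 10.23 and 10.30 in the P2 arrays. In P3 livers Decr1 read 7.93, 8.20, 6.99 and 7.69, and in P3r2 livers 8.99, 8.81, 8.75 and 9.09. All 4 P2 arrays exceeded every other array, and the P3 arrays overlapped the lower end of the fed range. Decr1 was 3.58-fold higher in P2 than in fed livers (1.84 ± 0.27, adjusted p = 0.000924), then 5.71-fold lower in P3 than in P2 (-2.51 ± 0.27, adjusted p = 1.15e-05). P3 and fed livers differed by -0.67 ± 0.27, which was not called (adjusted p = 0.11). Eci1, the mitochondrial enoyl-CoA delta isomerase, read 8.01, 7.07, 8.07 and 8.24 in the fed arrays 1 to 4 and 9.37, 9.49, 9.70 and 9.76 in the P2 arrays. In P3 livers Eci1 read 7.25, 7.33, 8.17 and 7.31, and in P3r2 livers 8.48, 8.01, 8.09 and 9.16. Its P2 arrays were again above all others, and P3 3 stood above the other P3 arrays. Eci1 rose 3.33-fold in P2 (1.73 ± 0.29, adjusted p = 0.00172) and was lower in P3 than in P2 (-2.06 ± 0.29, adjusted p = 8.57e-05). Its rise on refeeding (0.92 ± 0.29, adjusted p = 0.0346) was a call lost in 8 of 27 alternatives (adjusted p up to 0.115, including without P3 1, P3 2, P3 4, P3r2 1 or P3r2 4).

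Electrons from the acyl-CoA dehydrogenases pass to the electron transfer flavoprotein, made of the subunits Etfa and Etfb, and on to its oxidoreductase Etfdh. Both subunits rose in P2, Etfa by 0.84 ± 0.17 (adjusted p = 0.00648) and Etfb by 0.64 ± 0.11 (adjusted p = 0.00257), and neither was called in P3 against fed livers. P3 was lower than P2 for Etfb (-0.76 ± 0.11, adjusted p = 0.000153) and for Etfa (-0.55 ± 0.17, adjusted p = 0.0334). The Etfa call was lost in 6 of 27 alternatives (adjusted p up to 0.224, including without P2 2, P2 4, P3 1, P3 2 or P3 4). On refeeding Etfb rose by 0.38 ± 0.11 (adjusted p = 0.0252). The Etfb call was lost in 8 of 27 alternatives (adjusted p up to 0.772, including without P3 3, P3 4, P3r2 1, P3r2 3 or P3r2 4). Etfdh was not called in any comparison, with -0.16 ± 0.13 in P2 and -0.37 ± 0.13 in P3 against fed livers. In all, 6 of the 18 mitochondrial genes rose in P2, while in P3 livers 7 fell and 1 rose.

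**Figure D3:**
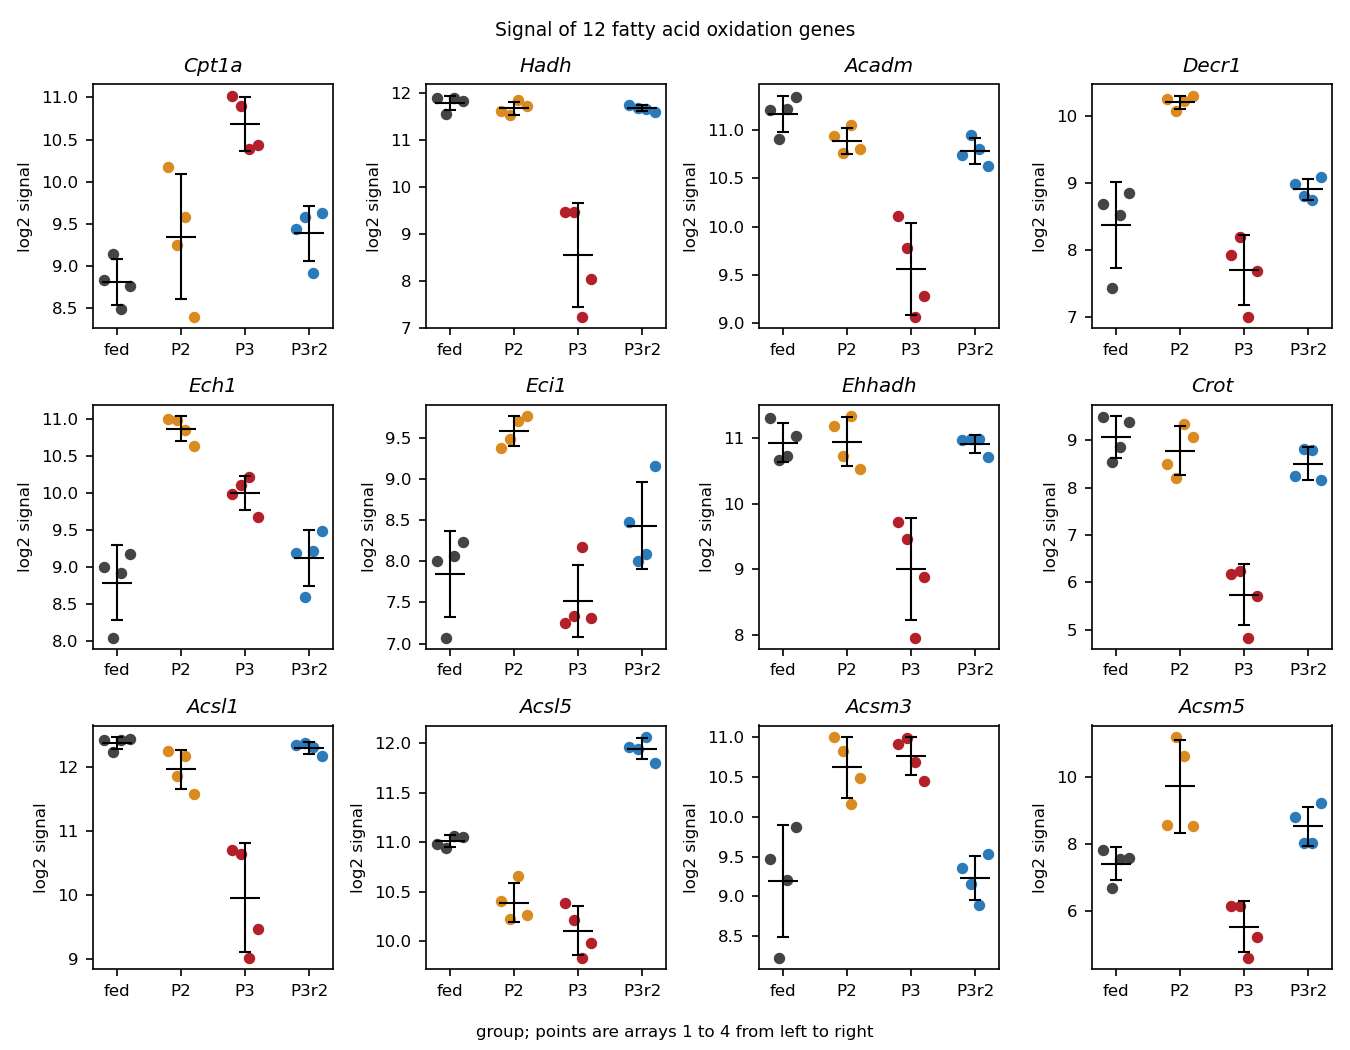
Log2 signal of 12 of the genes by group, with 1 point per array (arrays 1 to 4 from left to right) and bars for the mean ± SD (n = 4), each panel on its own axis. In Hadh, Acadm, Ehhadh, Crot and Acsl1 the 4 P3 points lie below all others, in Cpt1a they lie above all others, and in Decr1, Ech1 and Eci1 the P2 points are the highest.

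The peroxisomal genes held the largest fall from fed to P3 livers among the 39 genes. Crot, carnitine octanoyltransferase, prepares shortened chains for transfer out of the peroxisome, and its signal read 9.49, 8.54, 8.85 and 9.38 in the fed arrays 1 to 4 and 8.50, 8.20, 9.34 and 9.06 in the P2 arrays. In P3 livers Crot read 6.17, 6.23, 4.83 and 5.72, and in P3r2 livers 8.25, 8.82, 8.79 and 8.16. The P3 arrays were all lower than every other array, and the other 3 groups overlapped. Crot fell 10.0-fold from fed to P3 livers (-3.33 ± 0.32, adjusted p = 2.34e-06) and rose by 2.76 ± 0.32 on refeeding (adjusted p = 1.59e-05). Its P2 difference of -0.29 ± 0.32 was not called. Ehhadh, the bifunctional enoyl-CoA hydratase and 3-hydroxyacyl-CoA dehydrogenase, a classic PPAR alpha target in rodents, read 11.31, 10.67, 10.73 and 11.03 in the fed arrays 1 to 4 and 11.19, 10.74, 11.34 and 10.54 in the P2 arrays. In P3 livers Ehhadh read 9.72, 9.46, 7.95 and 8.88, and in P3r2 livers 10.97, 10.99, 10.99 and 10.71. Fed, P2 and P3r2 arrays occupied one range, with the P3 arrays below it. Ehhadh fell 3.82-fold in P3 livers (-1.93 ± 0.30, adjusted p = 0.000195), and rose with refeeding (1.91 ± 0.30, adjusted p = 0.000236). Its P2 difference of 0.01 ± 0.30 was not called.

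None of the other 3 peroxisomal genes was called lower in P3 than in fed livers. Phyh, phytanoyl-CoA hydroxylase, the first enzyme of alpha-oxidation, rose in P2 (0.58 ± 0.13, adjusted p = 0.00991) and in P3 (0.66 ± 0.13, adjusted p = 0.00141), and fell on refeeding (-0.63 ± 0.13, adjusted p = 0.00219). Hacl1, the lyase of the same pathway, was not called against fed livers (0.89 ± 0.36 in P2, -0.27 ± 0.36 in P3), and was lower in P3 than in P2 (-1.17 ± 0.36, adjusted p = 0.0286). The Hacl1 call was lost in 7 of 27 alternatives (adjusted p up to 0.0977, including without P2 1, P2 2, P3 3 or P3 4). Acot8, a peroxisomal thioesterase whose promoter matched the element with 1 mismatch, was not called in P2 or P3 against fed livers and was higher in P3r2 than in P3 (0.49 ± 0.15, adjusted p = 0.0298). The Acot8 call was lost in 8 of 27 alternatives (adjusted p up to 0.174, including without P3 1, P3 3, P3 4, P3r2 2, P3r2 3 or P3r2 4).

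Genes of both compartments included a pair that was up in both fasted groups. Ech1, the dienoyl-CoA isomerase of mitochondria and peroxisomes, read 8.99, 8.04, 8.92 and 9.17 in the fed arrays 1 to 4 and 11.00, 10.98, 10.84 and 10.63 in the P2 arrays. In P3 livers Ech1 read 9.98, 10.11, 10.21 and 9.68, and in P3r2 livers 9.19, 8.59, 9.21 and 9.48. The P2 arrays were highest, the P3 arrays came next without overlapping them, and the fed and P3r2 arrays lay below both. Ech1 rose 4.23-fold in P2 (2.08 ± 0.23, adjusted p = 0.0001) and 2.32-fold in P3 (1.21 ± 0.23, adjusted p = 0.00106) over fed livers, and P3 was lower than P2 (-0.87 ± 0.23, adjusted p = 0.0117). Crat, carnitine acetyltransferase, which buffers acetyl-CoA, rose by 1.16 ± 0.21 in P2 (adjusted p = 0.00292) and by 1.14 ± 0.21 in P3 (adjusted p = 0.000856), and fell on refeeding (-0.83 ± 0.21, adjusted p = 0.00974). Amacr, the racemase that prepares branched chains and bile acid intermediates, was lower in P3 than in fed livers (-1.39 ± 0.24, adjusted p = 0.000461). Its P3 3 value of 8.88 lay below the other P3 arrays at 10.09 to 10.32, and its rise on refeeding (0.93 ± 0.24, adjusted p = 0.0111) was 0.60 without P3 3 (adjusted p = 0.00439). Eci2, an enoyl-CoA delta isomerase like Eci1, was called only between P3 and P2 (-0.49 ± 0.13, adjusted p = 0.0102), a difference that was -0.22 and not called after quantile normalization (adjusted p = 0.195). Acad11, a further acyl-CoA dehydrogenase, had differences from fed livers of -0.28 ± 0.14 in P2 and -0.24 ± 0.14 in P3, neither called.

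The activating enzymes, which join a fatty acid to CoA, divided by family member. Acsl1, the main long-chain acyl-CoA synthetase of liver, read 12.42, 12.23, 12.41 and 12.44 in the fed arrays 1 to 4 and 12.24, 11.85, 12.17 and 11.58 in the P2 arrays. In P3 livers Acsl1 read 10.71, 10.65, 9.02 and 9.47, and in P3r2 livers 12.35, 12.37, 12.31 and 12.17. Its P3 arrays were below all others, with P3 3 and P3 4 the lowest, and P3r2 arrays overlapped the fed arrays. Acsl1 fell 5.32-fold in P3 (-2.41 ± 0.29, adjusted p = 2.18e-05) and rose by 2.34 ± 0.29 on refeeding (adjusted p = 3.31e-05). The Acsl1 difference in P2 of -0.41 ± 0.29 was not called. Acsl3, linked to lipid droplet formation, read 7.84, 6.97, 7.79 and 7.79 in the fed arrays 1 to 4 and 6.29, 6.26, 6.44 and 6.04 in the P2 arrays. In P3 livers Acsl3 read 6.06, 5.73, 6.30 and 6.11, and in P3r2 livers 7.17, 7.25, 7.40 and 7.15. The P2 and P3 arrays overlapped each other and lay below all fed and P3r2 arrays. Acsl3 fell in P2 (-1.34 ± 0.18, adjusted p = 0.000406) and in P3 (-1.55 ± 0.18, adjusted p = 1.14e-05).

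Acsl5, a long-chain synthetase of mitochondria and the endoplasmic reticulum, read 10.98, 10.94, 11.07 and 11.06 in the fed arrays 1 to 4 and 10.41, 10.22, 10.66 and 10.27 in the P2 arrays. In P3 livers Acsl5 read 10.39, 10.22, 9.83 and 9.99, and in P3r2 livers 11.97, 11.94, 12.07 and 11.80. The P3r2 arrays were above the fed arrays, and the P2 and P3 arrays below them, with no overlap of either with fed. Acsl5 fell in P2 (-0.62 ± 0.13, adjusted p = 0.00621) and in P3 (-0.91 ± 0.13, adjusted p = 8.1e-05), and in P3r2 rose 1.91-fold over fed livers (0.93 ± 0.13, adjusted p = 0.00112). Acsl4, which prefers arachidonic acid, read 10.43, 9.45, 10.21 and 10.45 in the fed arrays 1 to 4 and 10.80, 10.79, 10.85 and 10.47 in the P2 arrays. In P3 livers Acsl4 read 11.43, 11.40, 11.10 and 11.42, and in P3r2 livers 10.37, 10.39, 10.32 and 10.25. Its P3 arrays were above all others, its P2 arrays just above the highest fed array, and its P3r2 arrays within the fed range. Acsl4 rose in P3 (1.21 ± 0.18, adjusted p = 0.000142) and fell on refeeding (-1.01 ± 0.18, adjusted p = 0.000739). The smaller P2 rise (0.59 ± 0.18, adjusted p = 0.043) was 0.36 without fed 2 (adjusted p = 0.0587), and its call was lost in 14 of 27 alternatives (adjusted p up to 0.129, including without fed 2, fed 3, P2 1, P2 2, P2 3, P3 2, P3 4, P3r2 1, P3r2 2, P3r2 3 or P3r2 4). P3 exceeded P2 by 0.61 ± 0.18 (adjusted p = 0.0218). The Acsl4 call was lost in 3 of 27 alternatives (adjusted p up to 0.0722, each without P2 4, P3 1 or P3 4).

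The medium-chain synthetases Acsm3, Acsm5 and Acsm2 activate shorter acids in the mitochondrial matrix. Acsm3 read 9.47, 8.22, 9.21 and 9.88 in the fed arrays 1 to 4 and 11.01, 10.83, 10.15 and 10.48 in the P2 arrays. In P3 livers Acsm3 read 10.91, 10.99, 10.69 and 10.45, and in P3r2 livers 9.35, 9.16, 8.89 and 9.53. Both fasted groups were above all fed and P3r2 arrays. Acsm3 rose in P2 (1.42 ± 0.28, adjusted p = 0.0055) and P3 (1.56 ± 0.28, adjusted p = 0.0008) and fell on refeeding (-1.53 ± 0.28, adjusted p = 0.00107). Acsm5 read 7.83, 6.71, 7.56 and 7.57 in the fed arrays 1 to 4 and 8.55, 11.19, 10.60 and 8.53 in the P2 arrays. In P3 livers Acsm5 read 6.15, 6.16, 4.61 and 5.25, and in P3r2 livers 8.79, 8.04, 8.04 and 9.22. P2 2 and P2 3 stood more than 2 log2 units above P2 1 and P2 4, and all 4 P3 arrays lay below every other array. Acsm5 was 4.92-fold higher in P2 than in fed livers (2.30 ± 0.55, adjusted p = 0.0148) and 18.0-fold lower in P3 than in P2 (-4.17 ± 0.55, adjusted p = 6.16e-05). Its fall in P3 against fed livers (-1.87 ± 0.55, adjusted p = 0.0245) was a call lost in 5 of 27 alternatives (adjusted p up to 0.0799, each without fed 1, fed 3, fed 4, P3 3 or P3 4).

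Acsm2 read 5.87, 4.73, 5.59 and 5.90 in the fed arrays 1 to 4 and 5.37, 8.59, 7.91 and 5.41 in the P2 arrays. In P3 livers Acsm2 read 6.71, 6.82, 4.60 and 5.04, and in P3r2 livers 7.82, 7.77, 5.998 and 7.72. The same arrays P2 2 and P2 3 were high in Acsm2 as in Acsm5, P2 1 and P2 4 lay within the fed range, and no comparison was called (P2 against fed 1.30 ± 0.72, adjusted p = 0.245). Acsm2, Acsm3 and Acsm5 are related genes on chromosome 1, with Acsm5 and Acsm2 closer together and Acsm3 further away. Whether their probes share signal was not tested.

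Of the thioesterase or editing genes, which release or repair acyl-CoA, the editing enzyme Echdc1 and the synthetase Acsl5 were the 2 genes called above fed livers after refeeding. Echdc1, ethylmalonyl-CoA decarboxylase, read 6.80, 6.09, 5.78 and 6.86 in the fed arrays 1 to 4 and 5.24, 5.41, 5.98 and 5.90 in the P2 arrays. In P3 livers Echdc1 read 5.40, 5.65, 5.33 and 5.91, and in P3r2 livers 7.59, 7.33, 7.72 and 7.50. The P3r2 arrays were above every other array, whereas the P2 and P3 arrays overlapped the lower fed arrays. Echdc1 rose on refeeding against P3 (1.96 ± 0.24, adjusted p = 2.08e-05) and, against fed livers, was 2.22-fold higher (1.15 ± 0.24, adjusted p = 0.016). The Echdc1 call was lost in 3 of 27 alternatives (adjusted p up to 0.0593, each without fed 2, P3r2 1 or P3r2 3). Its falls in P2 (-0.75 ± 0.24, adjusted p = 0.0492) and P3 (-0.81 ± 0.24, adjusted p = 0.0227) were also called. The P2 call of Echdc1 was lost in 17 of 27 alternatives (adjusted p up to 0.153, including without fed 1, fed 4, P2 1, P2 2, P2 4, P3 1, P3 2, P3 4, P3r2 1, P3r2 2, P3r2 3 or P3r2 4), and the P3 call lost in 5 of 27 alternatives (adjusted p up to 0.0806, including without fed 1, fed 4, P3 1 or P3 3). Acot12, a cytosolic acetyl-CoA hydrolase whose promoter is printed above, fell in P3 (-1.04 ± 0.24, adjusted p = 0.00524), and its rise on refeeding (0.74 ± 0.24, adjusted p = 0.0424) was a call lost in 12 of 27 alternatives (adjusted p up to 0.136, including without fed 1, fed 4, P2 2, P3 2, P3 3, P3r2 1, P3r2 2, P3r2 3 or P3r2 4).

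Acot2, the mitochondrial long-chain thioesterase, read 7.49, 7.37, 7.70 and 7.73 in the fed arrays 1 to 4 and 7.01, 6.87, 7.54 and 7.60 in the P2 arrays. In P3 livers Acot2 read 6.45, 6.33, 8.01 and 6.80, and in P3r2 livers 7.81, 8.04, 7.86 and 8.20. P3 3 was the highest fasted array and lay among the P3r2 arrays, while the other 3 P3 arrays lay below all fed arrays. Acot2 rose from P3 to P3r2 (1.08 ± 0.29, adjusted p = 0.0142), and its difference of -0.68 ± 0.29 in P3 against fed livers was not called (adjusted p = 0.131). Acot1, its cytosolic relative and in rodents a strongly PPAR alpha dependent gene, read 2.35, 2.13, 2.57 and 2.37 in the fed arrays 1 to 4 and 2.64, 2.49, 2.66 and 3.31 in the P2 arrays. In P3 livers Acot1 read 2.10, 2.78, 2.59 and 2.56, and in P3r2 livers 2.51, 2.55, 3.01 and 3.04. These are dim values, the only ones among the 39 genes below the median row, the groups overlapped, and no comparison of Acot1 was called. Acot1 and Acot2 are near-identical neighbours, and whether their probes share signal was not tested.

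**Figure D4:**
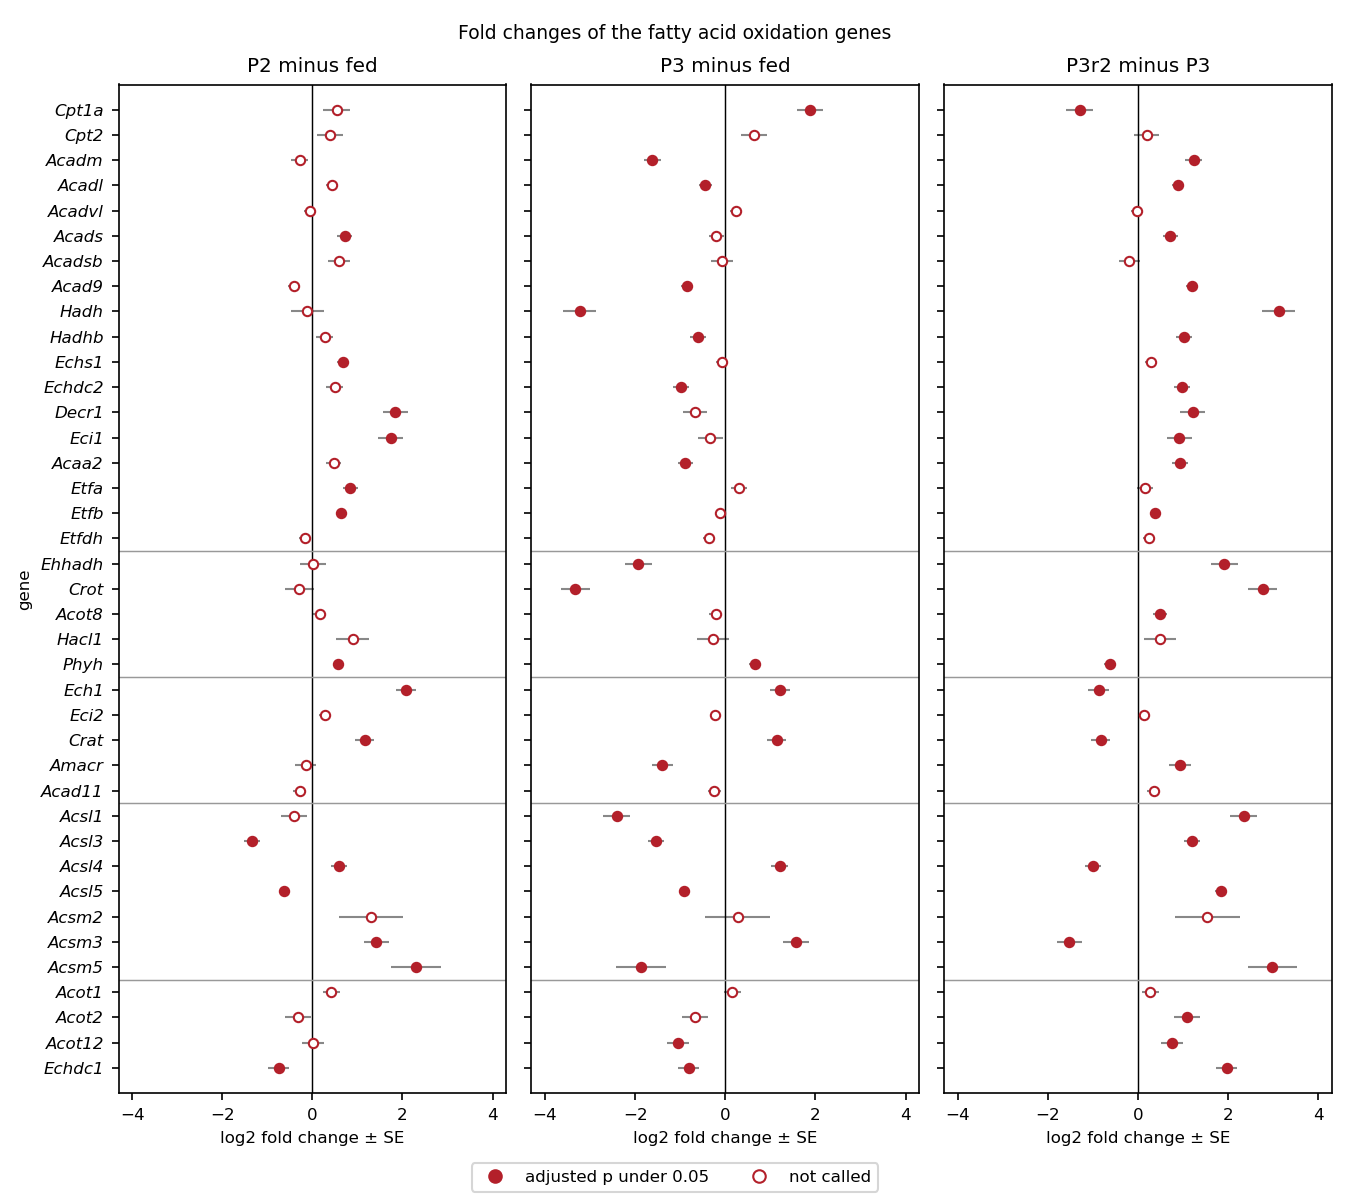
Log2 fold change ± SE of the 39 genes for P2 minus fed, P3 minus fed and P3r2 minus P3, ordered by class (lines separate mitochondrial, peroxisomal, both compartments, activating, and thioesterase or editing). Filled points were called at adjusted p under 0.05: 12 higher and 3 lower in P2, 6 higher and 16 lower in P3, and 22 higher and 6 lower on refeeding.

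Set side by side, the 7 genes whose promoters matched the element with at most 2 mismatches differed in what they did. Echs1, Etfa and Crat rose in P2, Crat also in P3, Amacr and Acot12 fell in P3, and Acadvl and Acot8 were called against fed livers in neither fasted group. The spread between rats of a group also varied. The median SD of the 39 genes was 0.31, 0.20, 0.29 and 0.12 in fed, P2, P3 and refed livers, against 0.26, 0.23, 0.27 and 0.16 over all rows brighter than the median row. In Hadh, Acsl1, Ehhadh, Crot, Acadm and Acsm5, P3 3 and P3 4 lay below P3 1 and P3 2.

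Genes around the pathway were counted from lists of its regulators and partners, of whose 108 genes 79 had a row. Some genes stand in several lists, so the counts of different lists can share genes. The background for these counts is the share of all rows given above, 6.13% called higher and 6.58% lower in P2, and 11.3% higher and 8.07% lower in P3. Of 18 genes for PPAR alpha and its co-regulators, the comparison of P2 with fed livers called 3 higher (16.7%) and 2 lower (11.1%). The comparison of P3 with fed livers called 7 higher (38.9%) and 3 lower (16.7%). Ppara itself was not called in P2 (-0.48 ± 0.29) or P3 (0.81 ± 0.29) against fed livers and was higher in P3 than in P2 (1.29 ± 0.29, adjusted p = 0.00458). Ppargc1a, a coactivator of PPAR alpha and of gluconeogenic genes, rose in P3 livers from 4.69 ± 0.37 to 9.80 ± 0.675 (5.10 ± 0.29, adjusted p = 9e-09). Lpin1, which also acts as a coactivator (2.86 ± 0.41, adjusted p = 0.0001), the receptor Esrra (2.13 ± 0.17, adjusted p = 4.75e-07) and the transcription factor Klf15 (2.09 ± 0.21, adjusted p = 3.09e-06) rose in P3 as well. The list did not move in one direction, and its largest fall in P3 against fed livers was -2.04 on the log2 scale. Of 13 other PPAR alpha target genes, 2 were called lower in P2 (15.4%), and 7 lower (53.8%) and 2 higher (15.4%) in P3. The fatty acid binding protein Fabp1 fell in P3 (-5.70 ± 0.49, adjusted p = 6.79e-07), as did the lipase inhibitor G0s2 (-4.66 ± 0.33, adjusted p = 9.16e-08) and the lipid droplet protein Plin2 (-3.44 ± 0.22, adjusted p = 4.22e-08).

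Malonyl-CoA, the inhibitor of the Cpt1a enzyme, is made by the acetyl-CoA carboxylases Acaca and Acacb. Of 11 genes for its control, the comparison of P2 with fed livers called 4 lower (36.4%) and 0 higher in limma, with 0 higher also at an unadjusted p under 0.05. The comparison of P3 with fed livers called 5 lower (45.5%) and 3 higher (27.3%). Acacb, the carboxylase at the mitochondrial surface, read 8.02, 8.49, 8.10 and 7.89 in the fed arrays 1 to 4 and 5.98, 5.46, 5.98 and 5.34 in the P2 arrays. In P3 livers Acacb read 4.47, 5.07, 4.63 and 4.53, and in P3r2 livers 9.51, 9.36, 9.32 and 8.67. The 4 groups did not overlap, with P3r2 highest and P3 lowest. Acacb fell in P2 (-2.43 ± 0.21, adjusted p = 1.02e-05) and P3 (-3.45 ± 0.21, adjusted p = 2.04e-08), and its excess over fed in P3r2 (1.09 ± 0.21, adjusted p = 0.0105) was a call lost in 1 of 27 alternatives (adjusted p up to 0.0742). Acaca fell in P2 (-3.22 ± 0.27, adjusted p = 1.02e-05) and P3 (-2.38 ± 0.27, adjusted p = 1.19e-05), as did the citrate lyase Acly (-3.21 ± 0.27 and -3.31 ± 0.27, adjusted p = 1.02e-05 and 5.37e-07). Prkaa1, a catalytic subunit of the kinase that switches the carboxylases off, was -0.32 ± 0.22 in P2, not called, and rose in P3 (2.35 ± 0.22, adjusted p = 1.74e-06).

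Of 7 genes for carnitine supply and the shuttle, the comparison of P3 with fed livers called 1 higher (14.3%) and 2 lower (28.6%). Slc25a20, the carnitine-acylcarnitine carrier between Cpt1a and Cpt2, was not called against fed livers (0.45 ± 0.14 in P2, -0.18 ± 0.14 in P3), and was lower in P3 than in P2 (-0.63 ± 0.14, adjusted p = 0.00469). The carnitine synthesis genes Bbox1 (-1.77 ± 0.25, adjusted p = 9.86e-05) and Tmlhe (-0.97 ± 0.20, adjusted p = 0.00192) fell in P3. Slc25a29, counted in this list as a carrier, rose in P3 (1.99 ± 0.32, adjusted p = 0.000265), and whether it carries carnitine was not tested. Of 15 other peroxisomal genes, 2 were called lower in P2 (13.3%), and 3 lower and 3 higher in P3 (20% each), among them the trans-enoyl-CoA reductase Pecr (-2.32 ± 0.26, adjusted p = 7.86e-06) and the CoA-cleaving Nudt19 (1.25 ± 0.13, adjusted p = 5.77e-06). Of 4 ketone body genes 1 was called higher and 1 lower in P2 (25% each), and 1 lower in P3. Bdh2, named as a cytosolic 3-hydroxybutyrate dehydrogenase, rose 2.14-fold in P2, from a mean log2 signal of 5.75 ± 0.17 to 6.85 ± 0.22 (SD, n = 4, adjusted p = 0.00149 in limma). Bdh1, which makes beta-hydroxybutyrate, fell in P2 (-1.38 ± 0.19, adjusted p = 0.000609) and further in P3 (-6.07 ± 0.19, adjusted p = 1.16e-11). Of 16 genes for fatty acid uptake and delivery, 1 was called higher (6.25%) and 7 lower (43.8%) in P3, with the monoacylglycerol lipase Mgll among those that fell (-3.01 ± 0.34, adjusted p = 1.04e-05).

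**Figure D5:**
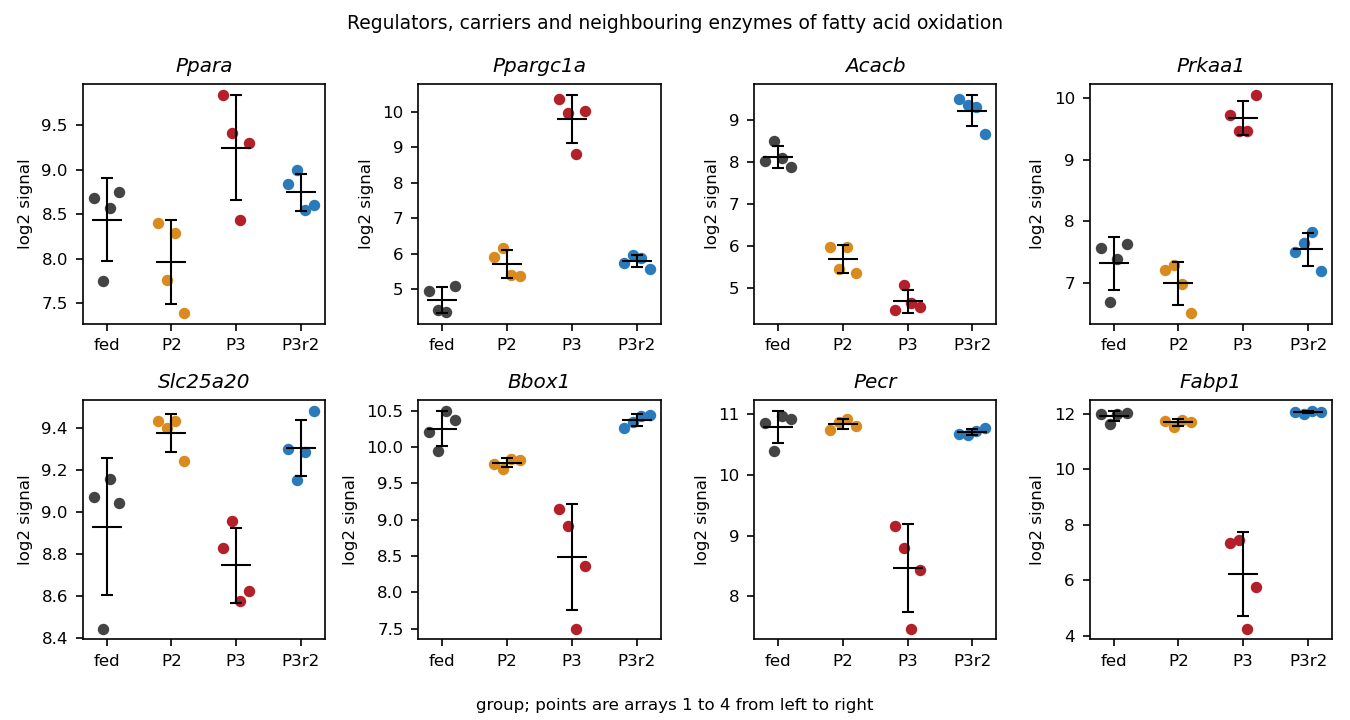
Log2 signal of 8 regulators, carriers and neighbouring enzymes by group, with 1 point per array (arrays 1 to 4 from left to right) and bars for the mean ± SD (n = 4), each panel on its own axis. Ppargc1a and Prkaa1 were highest in the 4 P3 arrays, Fabp1, Pecr and Bbox1 lowest there, and Acacb was low in both fasted groups and highest in P3r2.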

How the data were processed

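The deposited values are log2 signals per transcript cluster of Affymetrix Rat Exon 1.0 ST arrays, made by the authors with GCOS 1.4 and Affymetrix Expression Console 1.1, per the submitters' processing notes. Background correction, summarisation and genome build were not given in the sources used here, and the log base was inferred from the range of 0.84 to 13.6. Array signals saturate at the top and flatten at the bottom, which can shrink fold changes there. Values were used without further scaling.

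Of 19418 rows, 534 with identifiers below the annotated range were left out, and 18884 were tested, of which 13327 carry exactly 1 gene symbol, 620 several and 4937 none. Symbols come from the array's probe table, updated by gene ID through RefSeq (GRCr8) for 13232 rows. A gene is represented by its brightest row with only its symbol, and each of the 39 genes had 1 such row. One mean per group was fitted to all 16 arrays with limma 3.58.1 in R 4.3.3 (lmFit and eBayes, 12 residual degrees of freedom), with 5 two-sided contrasts. SE is that of the moderated fit. The fit was also run on simulated independent noise with changes planted in the comparison of P2 with fed arrays. The other contrasts and the choice of rows were not tested that way. The labels number the arrays within each group and name no batch and no technical replicates, and each array was treated as a separate rat.

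The genes, classes and lists were chosen with earlier results of these data known. Array values are printed for the top 3 called rises and top 3 called falls of each contrast and for a fixed list of key enzymes. Acsm2, the P3 values of Amacr and 8 plotted context genes were added with their values known. Promoters were read with Python 3.11.15. Alternatives were quantile normalization, median centring, trend and robust eBayes, array weights, only the 2 groups compared, brighter rows only, averaging all rows of a gene, a replicate block, 3 arrays of narrow spread left out, array spread as a covariate, gene length trend taken out, and each array left out in turn.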

Additional observations from a re-analysis of the deposited data

Results flagged for a closer look

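In 14 of 156 sets of 4 arrays of a group and gene, 1 array lay far from the other 3, where chance alone gives about 1 in 20 sets. Array fed 2 was low in Etfa at 9.55 (others 10.38 to 10.54), in Etfdh at 10.01 (others 10.60 to 10.65), in Acsl1 at 12.23 (others 12.41 to 12.44) and in Acsl3 at 6.97 (others 7.79 to 7.84). Array P3 3 was high in Eci1 at 8.17 (others 7.25 to 7.33), and low in Amacr at 8.88 (others 10.09 to 10.32) and in Acsl4 at 11.10 (others 11.40 to 11.43). Array P2 4 was high in Etfa at 11.36 (others 10.94 to 10.99) and low in Acsl4 at 10.47 (others 10.79 to 10.85). P2 3 was high in Acadsb at 10.36 (others 10.13 to 10.16). P3r2 3 was low in Acadl at 9.54 (others 9.78 to 9.82) and in Acsm2 at 5.998 (others 7.72 to 7.82). P3r2 4 was high in Acadvl at 10.18 (others 10.07 to 10.09) and low in Ehhadh at 10.71 (others 10.97 to 10.99).

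Acsm5 was the only one of the 39 genes called in opposite directions in the fasted groups, higher in P2 and lower in P3, each against fed. The difference between P3 and P2 was itself tested in limma and was -4.17 on the log2 scale, and the P3 call against fed livers was lost in 5 of 27 alternatives.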

How the results depend on the processing

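Of the 10 counts of called genes, 106 of 110 recomputed values and 152 of 160 with 1 array left out stayed within 1.5 times the reported count, and no called difference changed sign. In P3r2 against fed livers, the count called higher (2) was 4 with array weights and 1 to 2 with 1 array left out (1 without fed 2, P3r2 1 or P3r2 3). The count called lower (0) was 2 with array weights, 2 without the 3 arrays of narrow spread, 1 after quantile normalization and 0 to 1 with 1 array left out (1 without fed 2 or P3 3). In P3 against P2 the count called higher (2) was 1 to 2 (1 without P2 4, P3 1 or P3 4). Other counts with 1 array left out were 11 to 15 higher and 2 to 4 lower in P2 against fed, 6 to 7 higher and 12 to 19 lower in P3 against fed, 19 to 24 lower in P3 against P2, and 18 to 22 higher and 6 lower in P3r2 against P3. With the replicate block, P2 against fed gave 11 higher and 2 lower, P3 against fed 6 and 16, P3 against P2 2 and 22, P3r2 against P3 21 and 6, and P3r2 against fed 2 and 0. Replicate numbers gave no sign of pairing the rats: deviations of same-numbered arrays correlated at -0.40 to 0.26 and of others at -0.31 to 0.31. Overlapping ranges of this kind cannot exclude a pairing. With 4 arrays per group, small differences could go uncalled, depending on the spread of each gene.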
